A study of Homo sapiens with 4 samples.

Results

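Interferon response genes were examined in TOV112D, an established epithelial ovarian cancer cell line, as a set of 46 genes that holds the sensors of viral RNA, the type I interferon receptor and its signalling proteins, and genes that interferon switches on. A gene entered through the platform symbol of its probes, and 45 of the 46 genes had a named probe among the 19090 named genes of the array (67 probes of 28264); STAT2 was not analysed here. The HD group was TOV112D cells that had received the HOXD10-pCDNA plasmid, and the ND group was the control, which received the control plasmid (pCDNA3) according to the legends and the transfection methods and is called mock-transfected in the array methods. By the methods, transfection did not reach every cell. Each group had 2 single-colour arrays, and no source says whether these came from separate cultures, so the p-values reflect only how far these arrays differed, and that spread may be technical. The deposited values are normalized intensities, with no value below 50. Intensities of different probes are not comparable as levels, so the brightest probe of a gene or group means only the one with the highest signal. Fold changes are HD minus ND on the log2 scale from limma fitted over all probes, a standard error is given as SE, and intervals are 95% intervals of that fit.

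Type I interferons signal through a receptor made of IFNAR1 and IFNAR2, to which the kinases TYK2 and JAK1 are bound. The kinases activate STAT proteins that join IRF9 and bind the interferon-stimulated response element in the promoters of many genes, whose products hinder viral entry, translation and replication. The interferons themselves are made after sensors of foreign or misplaced nucleic acid activate the factors IRF3 and IRF7. Several signalling members, among them IFIH1, DHX58, IRF1, IRF7 and IRF9, are known to be induced by interferon as well, so signalling genes and induced genes are not separate by nature. Epithelial cells without infection usually keep many of these genes at a low level.

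The response element was looked for in the promoters of the members, since it is what ties these genes to the pathway. Its core was taken as GAAANNGAAA, read on both strands (TTTCNNTTTC on the other), with cores that overlap each other counted separately. RefSeq promoter windows on GRCh38.p14, from 250 bases before to 50 bases after a start site, were held for 35 of the 45 members. A core was found for 21 of these 35, for 20 of 29 induced genes and for 1 of 6 signalling genes, IFIH1, against 4.38% of 27305 genes with a window. The motif TTCNNNGAA, bound by STAT dimers, was found for 10 of the 35 members against 9.38% of all genes with a window. Members with a probe that was higher in HD cells held the core in 3 of 6 cases, those with a lower probe in 5 of 5, and those with no called probe in 13 of 24. A match describes these letters only and is not a measured binding site. Called members with a core had a probe that was higher (IFI44, HERC5, PARP9) or lower in HD cells (ISG15, IFI6, IFIH1, PLSCR1, TRIM5). The calls of PARP9, PLSCR1 and TRIM5 rest on dimmer probes, and their brightest probes had log2 fold changes of -0.51, 0.10 and 0.43. The stretches around the cores of all these members are shown so that similar elements of genes with opposite calls can be set beside each other. They run 5′ to 3′ on the strand of the gene, and capitals mark the cores.
IFI44: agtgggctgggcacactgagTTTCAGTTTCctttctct
HERC5: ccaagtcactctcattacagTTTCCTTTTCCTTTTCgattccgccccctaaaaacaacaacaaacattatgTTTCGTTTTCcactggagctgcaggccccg
PARP9: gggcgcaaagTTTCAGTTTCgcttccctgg
ISG15: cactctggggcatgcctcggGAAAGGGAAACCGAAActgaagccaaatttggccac
IFI6: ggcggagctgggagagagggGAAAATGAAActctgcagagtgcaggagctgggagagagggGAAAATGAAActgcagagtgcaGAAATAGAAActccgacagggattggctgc
IFIH1: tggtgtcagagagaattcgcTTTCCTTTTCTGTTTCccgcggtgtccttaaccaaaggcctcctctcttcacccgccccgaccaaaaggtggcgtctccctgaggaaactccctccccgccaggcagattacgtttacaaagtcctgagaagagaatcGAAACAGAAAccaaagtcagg
PLSCR1: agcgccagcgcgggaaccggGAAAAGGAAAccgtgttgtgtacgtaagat
TRIM5: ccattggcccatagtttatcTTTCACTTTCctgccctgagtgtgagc
The stretches lie at chr1:78649751-78649788 on the plus strand for IFI44, chr4:88456974-88457074 on the plus strand for HERC5, chr3:122564322-122564351 on the minus strand for PARP9, chr1:1013364-1013419 on the plus strand for ISG15, chr1:27672256-27672368 on the minus strand for IFI6, chr2:162318685-162318863 on the minus strand for IFIH1, chr3:146544657-146544706 on the minus strand for PLSCR1 and chr11:5685075-5685121 on the minus strand for TRIM5. IFI6, HERC5 and IFIH1 each held 3 cores in the stretch shown, and ISG15 held 2. HERC6, SP110 and SAMHD1, each with a probe higher in HD cells, had no core in the part of the window before the start site. The brightest SP110 probe had a log2 fold change of -0.03. The windows of PARP9 and of DTX3L, which is read in the opposite direction, share 137 bases that hold the core printed for PARP9. DTX3L likewise had no core in the part of its window before its own start site.

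As a group the interferon response genes did not move in a common direction in HD cells. By the study's criteria, that is a change of 1 or more on the log2 scale in either direction and an unadjusted p under 0.05, 5 probes were higher, 5 were lower and 57 did not pass, which is 14.9% of the 67 probes against 12.4% of all 28264 probes (6.11% higher and 6.27% lower). After quantile normalization 5 were higher and 3 lower, against 1969 and 1103 of all 28264 probes. At an adjusted p under 0.05 from limma, 5 rose, 8 fell and 54 did not pass, 19.4% against 13.8% of all probes (6.65% higher and 7.19% lower). The HD and ND arrays did not overlap for 49 of the 67 member probes, 25 of them higher and 24 lower in HD cells. Over all 28264 probes this held for 16882 (59.7%), with 7040 higher (24.9%) and 9842 lower (34.8%). The median log2 fold change of the 45 genes, each taken by its brightest probe, was 0.00 against -0.05 over all named genes. This 0.00 is the value of members that were at the lowest intensity on every array. A gene is written as rising or falling where a probe passed either set of criteria, which was so for 12 genes and 14 probes. Both sets called 9 of these probes. When an array was removed, 1 group held a single array. No call at an adjusted p then held, whichever array it was, and all 14 called probes kept their direction. By the study's criteria 5 or 6 member probes were then higher and 4 to 6 lower.

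**Figure D1:**
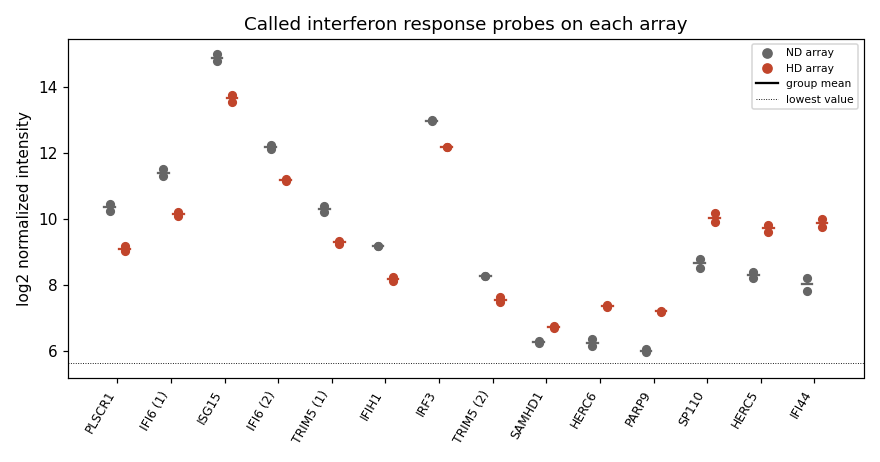
Normalized intensity on the log2 scale of the 14 interferon response probes that passed either set of criteria, with each ND and HD array as a point, the group mean as a bar and the lowest value of the table as a dotted line; numbers in brackets tell probes of a gene apart. The HD arrays lie below the ND arrays from PLSCR1 to the dimmer TRIM5 probe and above them from SAMHD1 to IFI44, and no pair of groups overlaps.

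The sensors were represented by IFIH1 and DHX58, helicases that recognise double-stranded RNA in the cytosol. IFIH1 (MDA5), which detects long double-stranded RNA, gave 577 and 582 in ND and 280.5 and 304 in HD cells. The groups were well apart and the arrays within each were close. IFIH1 fell by 0.99 on the log2 scale (SE 0.0545, adjusted p = 0.0337 from limma). DHX58 (LGP2), which modulates the other helicases, gave 352 and 396 in ND and 387 and 395 in HD cells, values that overlapped, with a log2 fold change of 0.07 (95% interval -0.21 to 0.34).

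The receptor chains differed in sign from each other and neither passed. IFNAR1, the chain bound by TYK2, gave 831 and 874 in ND and 1275 and 1145 in HD cells on its brighter probe, with a log2 fold change of 0.50 (adjusted p = 0.0615 from limma), and its dimmer probe gave 0.47. IFNAR2, the chain bound by JAK1, gave 1902 and 2200 in ND and 1584 and 1461 in HD cells on its brighter probe (log2 fold change -0.43), and -0.88 on its dimmer probe (adjusted p = 0.0570 from limma). So every HD array was above the ND arrays for IFNAR1 and below them for IFNAR2 on all 4 probes, without passing the test. JAK1, whose probe was the brightest of this group, gave 7286 and 7327 in ND and 12130 and 9801 in HD cells. Its log2 fold change of 0.58 missed the threshold (adjusted p = 0.108 from limma) and rescaling by quantiles gave 0.83, by cyclic loess 0.92. TYK2 had a log2 fold change of 0.19 (95% interval -0.07 to 0.46).

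The transcription factors measured were IRF1, IRF3, IRF7 and IRF9, and the brightest probe of each lay below 0 with the deposited values and after quantile, cyclic loess and 75th percentile scaling. IRF3, the factor that starts interferon transcription, gave 8104 and 8075 in ND and 4672 and 4668 in HD cells. These were among the closest replicate values of the set, and IRF3 fell by 0.79 on the log2 scale (SE 0.0140, adjusted p = 0.0229 from limma), or by 0.61 after quantile normalization. Its dimmer probe had a log2 fold change of 0.26 (95% interval -0.14 to 0.65), so the probes of IRF3 did not move together. IRF9, the partner of the STAT proteins, had log2 fold changes of -0.42 (-0.22 after cyclic loess normalization) and -0.24 on its probes, IRF1, a factor also induced by interferon-gamma, -0.42 and -0.32, and IRF7, which amplifies the response, -0.60. Of these 5 values, none passed. IRF7 lay close to the lowest value, at 82.1 and 79.0 in ND and 50 and 56.8 in HD cells.

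ISG15 and its ligase HERC5 moved in opposite directions. ISG15 is a ubiquitin-like protein that is joined to other proteins, HERC5 is its main human ligase, and HERC6 is a neighbouring gene whose product does this in the mouse. ISG15 gave 28379 and 32570 in ND and 11984 and 13907 in HD cells, a fall of 1.24 on the log2 scale (SE 0.131, adjusted p = 0.0448 from limma). It was among the brightest members, and every HD value lay below the ND values. Bright probes were lower in HD cells in general, with a median log2 fold change of -0.59 over the 712 probes that, like that of ISG15, averaged between 14 and 15 in log2 intensity. After quantile and cyclic loess normalization ISG15 had -0.78 and -0.72, which no longer met the study's criteria (adjusted p = 0.0918 and 0.0297 from limma).

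HERC5 gave 298 and 337 in ND and 780 and 908 in HD cells, a rise of 1.41 (SE 0.126, adjusted p = 0.0413 from limma). HERC6 was dimmer, at 82.1 and 70.2 in ND and 167 and 161 in HD cells, and rose by 1.11 (SE 0.102, adjusted p = 0.0418 from limma). HERC5 and HERC6 were above 0 under every scaling tried. HERC6 no longer met the 2-fold limit with 50 added before the log2, at 0.76, or without ND replicate 2, at 0.999.

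Among the IFI genes, IFI44 and IFI6 moved in opposite directions. IFI44, a cytosolic protein of the antiviral response, had the largest rise of the 67 probes. It gave 224.5 and 298.5 in ND and 1011 and 865 in HD cells, a rise of 1.85 (SE 0.209, adjusted p = 0.0466 from limma). IFI6, a small membrane protein with antiviral and survival roles, fell on both probes. Its brighter probe gave 4435 and 4875 in ND and 2371 and 2250 in HD cells, a fall of 1.01 (SE 0.0705), and the dimmer gave 2499 and 2892 in ND and 1185 and 1090 in HD cells, a fall of 1.24 (SE 0.108). The brighter probe lies near the 2-fold limit and had -0.94 after quantile and -0.88 after cyclic loess normalization. IFI44L, the neighbour and relative of IFI44, did not follow it, with a log2 fold change of -0.81 on its brighter probe (740 and 361 in ND, 287 and 304 in HD cells) and 0.21 on the dimmer, and neither passed. IFI35, which forms a complex with NMI, was the brightest member of this group. It gave 17642 and 23138 in ND and 22437 and 19171 in HD cells, values that overlapped, with a log2 fold change of 0.04 (95% interval -0.67 to 0.75) that was 0.51 after quantile normalization. IFI27 was at or next to the lowest value on all arrays.

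None of the IFIT, IFITM, MX and OAS probes passed in either direction. The IFIT proteins bind foreign RNA, and of their 5 probes 4 had log2 fold changes above 0, from 0.24 to 0.86, while IFIT2 was at the lowest value throughout. IFIT1, the brightest, gave 909 and 1110 in ND and 1282 and 1101 in HD cells (log2 fold change 0.24, 95% interval -0.33 to 0.81). IFIT5 had the largest value of this family, with 108.5 and 139 in ND and 223 and 222 in HD cells, and a log2 fold change of 0.86 with adjusted p = 0.0786 from limma. The IFITM proteins restrict entry at membranes. IFITM2, the brightest of them, gave 434 and 385 in ND and 207 and 353 in HD cells (log2 fold change -0.59, 95% interval -1.83 to 0.64), and IFITM1 and IFITM3 had 0.04 and -0.30. MX1, an antiviral GTPase, gave 151 and 236 in ND and 140 and 125 in HD cells (log2 fold change -0.51). MX2 was at the lowest value on all 4 arrays.

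The OAS enzymes respond to double-stranded RNA, and their probes ran from -0.94 (OAS2) to 0.58 (OAS3) with none past a threshold. OAS3 gave 1352 and 1693 in ND and 2330 and 2209 in HD cells on its brighter probe, and its other probe had -0.25. ADAR, which edits double-stranded RNA, was the brightest of the RNA enzymes, with 2425 and 3034 in ND and 3302 and 2846 in HD cells (log2 fold change 0.18, 95% interval -0.43 to 0.79). ISG20, an exonuclease, was lower on both HD arrays, at 77.3 and 73.0 against 128 and 153, and had a log2 fold change of -0.90 with adjusted p = 0.0534 from limma. OAS1, OAS2, IFIT and IFITM genes have close relatives, and how far each probe tells relatives apart was not tested.

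Of the TRIM proteins, TRIM5, which recognises retroviral capsids, fell on part of its probes. A probe with 1353 and 1171 in ND and 649 and 605 in HD cells fell by 1.01 (SE 0.104, adjusted p = 0.0440 from limma), and a dimmer probe with 306 and 307 in ND and 197 and 179 in HD cells fell by 0.71 (SE 0.0630). The first lay near the 2-fold limit, with -0.95 when 50 was added before the log2, -0.90 without ND replicate 1 and -0.96 without HD replicate 2, and the second had an adjusted p of 0.0538 after quantile normalization and 0.0625 with an intensity trend in limma. The brightest TRIM5 probe had 0.43 on the log2 scale, with 1244 and 1209 in ND and 1587 and 1718 in HD cells (adjusted p = 0.0521 from limma). TRIM25, the ligase that ubiquitinates the sensor RIG-I, gave 4247 and 4509 in ND and 6372 and 4733 in HD cells and missed both thresholds (log2 fold change 0.33, or 0.54 after cyclic loess normalization), and TRIM22 was at the lowest value throughout.

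Of the 9 remaining induced genes, PARP9, SP110 and SAMHD1 had a probe that rose and PLSCR1 a probe that fell. PARP9, the partner of the ubiquitin ligase DTX3L, gave 62.2 and 66.5 in ND and 148 and 146 in HD cells on its dimmer probe, a rise of 1.19 (SE 0.0450, adjusted p = 0.0281 from limma) that was 0.78 with 50 added before the log2. SP110, a component of nuclear bodies, gave 368 and 445 in ND and 1149 and 957 in HD cells on its dimmer probe, a rise of 1.37 by the study's criteria (SE 0.170, adjusted p = 0.0502 from limma). SAMHD1, which breaks down nucleotides that viruses need, rose by 0.45 (SE 0.0404, adjusted p = 0.0413 from limma) from 79.2 and 75.3 to 107 and 104. This call was lost after quantile normalization, 75th percentile scaling and removal of dim probes, with adjusted p between 0.0527 and 0.0856 from limma, and the change was 0.29 when 50 was added before the log2. PLSCR1, a phospholipid scramblase that restricts viral entry, gave 1221 and 1392 in ND and 582 and 517 in HD cells on its dimmer probe, a fall of 1.25 (SE 0.114, adjusted p = 0.0415 from limma). BST2 (tetherin), which holds budding virions at the cell surface, had a log2 fold change of -0.78 (adjusted p = 0.0707 from limma) and PARP12 0.90 on its brighter probe (adjusted p = 0.0539 from limma). The brightest probe of this group was that of SP110 at 1009 and 1021 in ND and 1115 and 882 in HD cells. XAF1 and RSAD2 were at the lowest value on every probe and array, and CMPK2 had -0.06 on its measurable probe. In all, 5 members (IFIT2, MX2, TRIM22, RSAD2 and XAF1) gave no value above the lowest, and 11.9% of member probes were there on all 4 arrays against 12.1% of all probes.

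**Figure D2:**
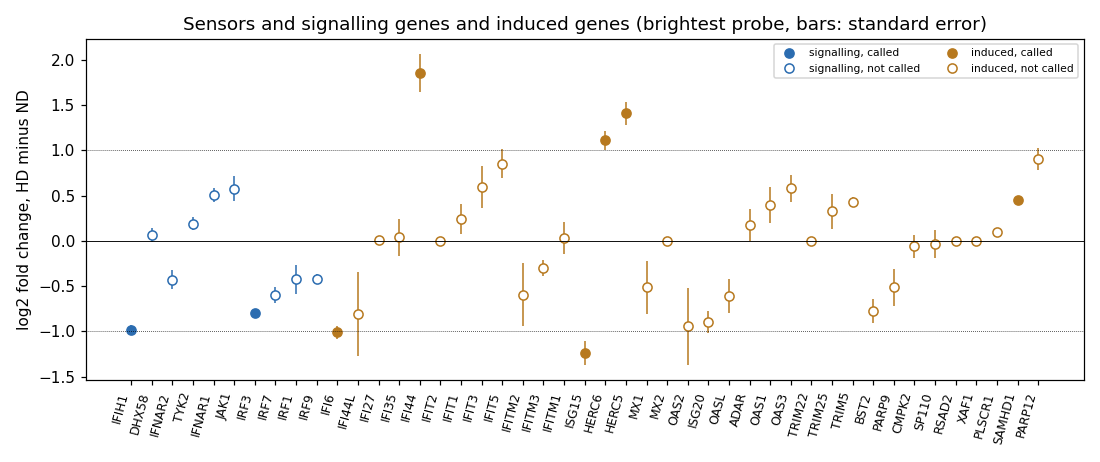
Log2 fold change, HD minus ND, of the 45 interferon response genes on their brightest probes, in order of role, with the SE as bars; filled points passed either set of criteria and dotted lines mark 2-fold. All 10 sensors and signalling genes lie inside the 2-fold lines, and the points outside them are IFI44, HERC5, HERC6, ISG15 and IFI6, all induced genes.

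Sensors and signalling genes were set against induced genes as the comparison of main interest. Of the 10 measured signalling genes all 10 were within 2-fold on the brightest probe, 4 above and 6 below 0, and 2 fell at an adjusted p under 0.05 (IFIH1 and IRF3). Of the 35 induced genes 30 were within 2-fold, 17 above, 13 below and 5 at 0, with 4 rises and 2 falls at that threshold. The background over all named genes was 14.6% called at an adjusted p under 0.05. The signalling genes had a median log2 fold change of -0.42 and the induced genes of 0.00, a difference of -0.42. The induced median fell on the 5 genes at the lowest value on every array, so it is not a measured lack of change. With dim probes removed it was 0.04. The replicate SD of the difference between arrays was 0.0366. That SD comes from 2 arrays a group that may be technical and does not measure the spread over genes or cultures. The middle of each group was wide, from -0.55 to 0.16 for signalling and from -0.51 to 0.41 for induced genes (quartiles), against -0.51 to 0.24 for all genes. The difference rests on 10 genes, has no test over samples, and lay between -0.48 and -0.33 with any array left out and at -0.30 when the probes of a gene were averaged. All 10 member probes with a change of at least 2-fold by the study's criteria belonged to induced genes, which hold 51 of the 67 probes. By these criteria 12.4% of all probes were called and 85.7% of all probes were within 2-fold. For 15 of 16 signalling probes and 34 of 51 induced probes the HD and ND arrays did not overlap, against 59.7% of all probes.

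**Figure D3:**
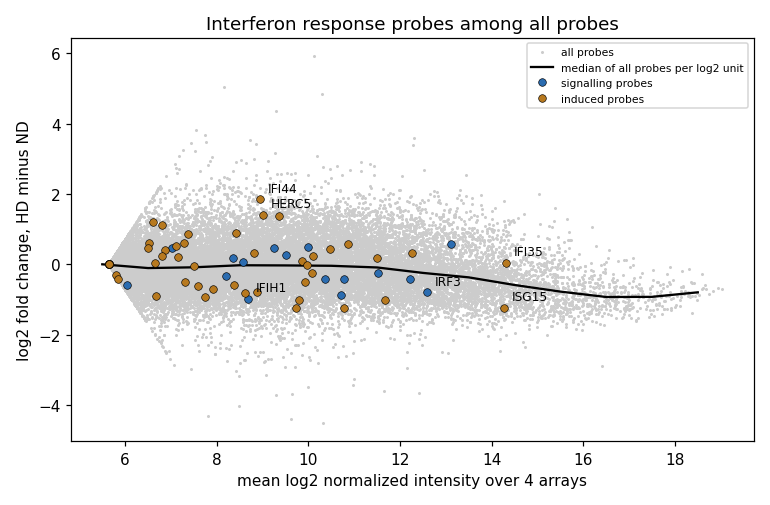
Log2 fold change, HD minus ND, against the mean log2 normalized intensity for all 28264 probes (grey), signalling probes (blue) and induced probes (brown), with the median of all probes in each log2 unit as a line. The line falls to -0.59 where ISG15 lies, and the member probes are spread on both sides of it.

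Several members had probes that disagreed. Of the 20 members with more than 1 probe, 18 had at least 2 above the lowest value, and for 7 of these 18 the log2 fold changes had opposite signs (IFI44L, IRF3, OAS3, PARP9, PLSCR1, SP110 and TRIM5). For 5 of them, IRF3, PARP9, PLSCR1, SP110 and TRIM5, the 95% intervals of a pair of probes did not overlap. Among these, the brighter probe of PARP9 had a log2 fold change of -0.51 (1018 and 1345 in ND, 878 and 764 in HD cells) against 1.19 on the dimmer, that of SP110 -0.03 against 1.37, and the brighter PLSCR1 probe 0.10 (884 and 924 in ND, 994 and 942 in HD cells) against -1.25. IFI6 was the only member with more than 1 such probe that passed on all of them. HERC5, HERC6, ISG15, IFI44, IFIH1 and SAMHD1 had a single probe each, so no second reading is at hand for them. The transcripts that each probe detects were not known here. How often the probes of a gene disagree over the whole array was not tested.

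**Figure D4:**
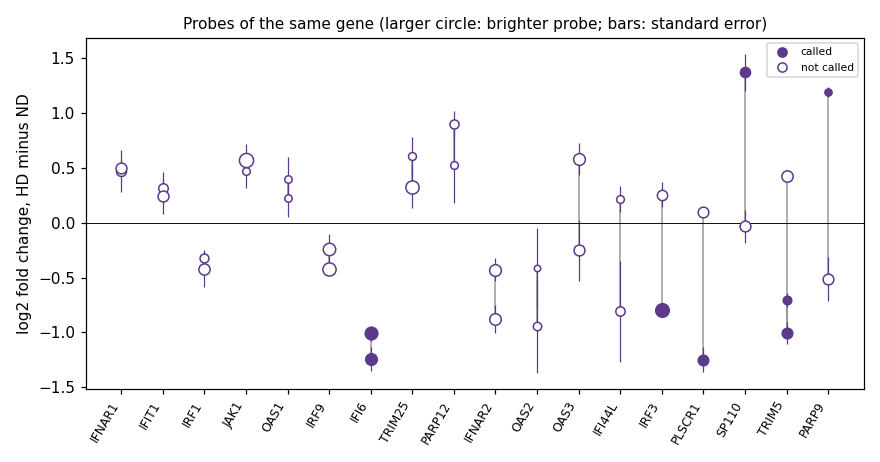
Log2 fold change, HD minus ND, of each probe above the lowest value for the 18 members with at least 2 such probes, ordered by the distance between their probes, with the SE as bars; larger circles are brighter probes and filled circles passed either set of criteria. The probes of IFNAR1, IFIT1, IRF1 and JAK1 lie close together, and those of PLSCR1, SP110, TRIM5 and PARP9 are the farthest apart.

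Other genes of the pathway were taken from a list of 47, of which 45 were analysed here. On the brightest probe of each, 6 were higher, 2 were lower and 37 did not pass by the study's criteria (17.8% against 13.0% of all named genes, 6.16% higher and 6.83% lower), and 8 rose, 2 fell and 35 did not pass at an adjusted p under 0.05 from limma (22.2% against 14.6%, 6.67% higher and 7.97% lower). The count of lower genes by the study's criteria was 5 without ND replicate 2 and 1 without ND replicate 1 or HD replicate 2. NMI, which binds IFI35 and STAT proteins, gave 91.5 and 79.0 in ND and 616 and 583 in HD cells, a rise of 2.82 (SE 0.101). IFI16, a sensor of DNA, gave 124 and 127 in ND and 435 and 451 in HD cells, a rise of 1.82 (SE 0.0291). PARP14, an ADP-ribosyltransferase, rose by 1.52, TBK1, the kinase that activates IRF3, by 1.30, and IFNGR1, the ligand-binding chain of the interferon-gamma receptor, by 1.16. DTX3L, the partner of PARP9 that shares its promoter stretch, gave 162 and 177 in ND and 323 and 374 in HD cells, a rise of 1.04 (SE 0.109, adjusted p = 0.0448 from limma). ZC3HAV1, which binds viral RNA, and IFNLR1, a chain of the interferon-lambda receptor, rose by 0.997 and 0.36.

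Falls in this list were seen for SOCS3 and UBE2L6. SOCS3, a feedback inhibitor of JAK kinases, gave 3417 and 3536 in ND and 1116 and 943 in HD cells on its brighter probe, a fall of 1.76 (SE 0.111, adjusted p = 0.0357 from limma), and its dimmer probe had -0.15. UBE2L6, the conjugating enzyme for ISG15, gave 2552 and 2327 in ND and 1250 and 1039 in HD cells, a fall of 1.10 (SE 0.133, adjusted p = 0.0496 from limma). The following genes of the list were singled out after their values were seen. Along the ISG15 pathway, ISG15 and UBE2L6 were thus lower and HERC5 higher, UBA7, the activating enzyme, was at the lowest value on all arrays, and USP18, the protease that removes ISG15, had log2 fold changes of -0.71 and -0.19 that did not pass. MAVS, the adaptor below IFIH1, rose by 1.79 on its dimmer probe and had -0.44 on the brighter. IFNB1 and IFNL1, which encode a type I and a type III interferon, were at the lowest value on all 4 arrays, and CXCL10, a chemokine induced by interferon, gave 53.8 on ND replicate 1 and the lowest value elsewhere.

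**Figure D5:**
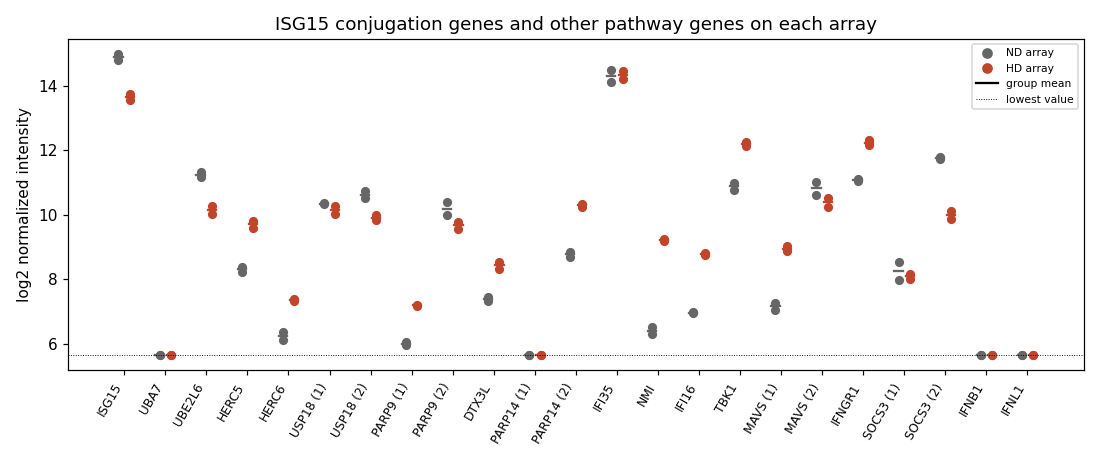
Normalized intensity on the log2 scale of the genes of ISG15 conjugation, the PARP9 and DTX3L pair and other pathway genes, with each ND and HD array as a point, the group mean as a bar and the lowest value as a dotted line; numbers in brackets tell probes of a gene apart. ISG15, UBE2L6 and the brighter SOCS3 probe are lower and HERC5, HERC6, NMI, IFI16, TBK1 and IFNGR1 higher on both HD arrays, while UBA7, IFNB1 and IFNL1 sit on the lowest value.

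Over the whole table the arrays shared a median of 361, and 4414 to 5579 probes an array were at the lowest value. The probe of HOXD10 was at 50 on all 4 arrays, and its position within the gene was not known here. The paper reports raised HOXD10 by qPCR and western blot in TOV112D cells given the plasmid. Of 8 epithelial markers EPCAM and KRT8 rose, KRT19 fell and CDH1 was at the lowest value on all arrays. The summed intensity of 5 fibroblast markers was higher in HD cells, at 45577 and 38462 against 23860 and 25015. LUM, a matrix proteoglycan, was higher on both probes (log2 fold changes 1.13 and 0.80). Its brighter probe gave 33247 and 26472 in HD against 13461 and 13744 in ND cells. A dim probe of COL1A2 was higher by 0.55, while its brighter probe had -0.08. DCN had 0.02 on its brighter and -0.35 on its dimmer probe, and COL1A1 and PDGFRB had 0.24 each. The brighter LUM probe passed the study's criteria (adjusted p = 0.0522 from limma). The dimmer probes of LUM and COL1A2 passed at an adjusted p under 0.05 (0.0458 and 0.0343 from limma). On the brightest probes none of these 5 markers passed at that adjusted p. Since leukocytes express many interferon response genes, their markers were read too. Of 5 measured leukocyte markers LYZ was at the lowest value on all arrays and the T-cell marker CD3E was at 53.9 or below. The summed intensity of these 5 markers was 1062 and 1204 in ND and 1002 and 1207 in HD cells. CD14, the brightest of them, gave 803 and 888 in ND and 543 and 759 in HD cells. Its log2 fold change of -0.39 did not pass (adjusted p = 0.355 from limma). CSF1R had a log2 fold change of -0.07, with values that overlapped. PTPRC, the leukocyte antigen CD45, rose by 1.55 on its brighter probe, from 81.1 and 99.1 to 277 and 250, and was at the lowest value on the other. The part of these marker differences in the interferon response genes was not tested.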

How the data were processed

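Expression was measured with single-colour Cy5 whole-genome oligonucleotide arrays (Human Whole Genome OneArray) in 2 HD and 2 ND samples of TOV112D cells. According to the methods, the authors scanned the arrays, read spots with GenePix and centred them at the 75th percentile; the deposited intensity values are linear, have no value below 50 and have a common median on all arrays but not a common 75th percentile, and no background correction is described. Values at 50 carry no order, which understates changes of dim probes.

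Log2 intensities were compared, HD minus ND, with limma 3.58.1 (lmFit, eBayes; R 4.3.3) across the 28264 probes (residual degrees of freedom 2, prior 0.543), with Benjamini-Hochberg adjustment. Of the probes, 25893 had 1 symbol in the platform annotation, 0 several and 2371 none. Medians and counts over genes use the probe that was brightest on average, while a gene was called higher or lower where any of its probes passed. Values on each array are given for called member probes and for the brightest member of each role, and called genes are named from the list of other pathway genes. Members, lists and rules were chosen with earlier results of these data known. Alternatives covered normalization, a pseudocount of 50, removal of dim probes, trended and robust eBayes, a replicate block, each array left out in turn and averaged probes. Promoter sequences came from RefSeq on GRCh38.p14. Arrays limit precision by their number, 2 a group.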

Additional observations from a re-analysis of the deposited data

How the results depend on the processing

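By the study's criteria, against 5 higher and 5 lower member probes, 5 and 3 passed after quantile normalization (62.5% higher) and 3 and 3 with a pseudocount of 50. Over all probes 1728 and 1771 passed with the deposited values, 1969 and 1103 after quantile normalization and 1354 and 1483 with the pseudocount. At an adjusted p under 0.05 from limma, against 5 higher and 8 lower, the counts were 9 and 9 after quantile normalization, 13 and 14 after cyclic loess normalization, 11 and 14 after 75th percentile scaling, 10 and 15 with the filter on dim probes, and 1 and 1 with robust eBayes. Calls over all probes shifted too, from 1879 and 2033 to 3300 and 2751 after quantile and 4973 and 3929 after cyclic loess normalization. They were 4256 and 5216 after 75th percentile scaling and 271 and 293 with robust eBayes. With the filter they were 4042 and 5477 of 23902 probes. No source says whether the replicate numbers pair the arrays. Deviations of same-numbered arrays had a correlation of -0.32. With 2 arrays a group its sign depends on the numbering alone, so it cannot settle this. With the replicate block 0 and 0 member probes passed at an adjusted p under 0.05 from limma, as did 0 and 0 of all probes. With the numbers crossed, chosen after seeing the data, 0 and 0 passed, 5 and 5 by the study's criteria. With any array left out, 1 group held a single array and no member probe kept a call at an adjusted p.

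The median of the signalling genes was -0.31 after cyclic loess normalization, -0.30 for averaged probes, and -0.48 to -0.32 without any array. That of the induced genes was 0.00 to 0.04 without any array. The difference was -0.36 after quantile normalization, -0.33 after cyclic loess normalization, -0.37 with the pseudocount, -0.46 with the filter, -0.30 for averaged probes and -0.48 to -0.33 without any array. Other pathway genes were higher in 5 to 7 and lower in 1 to 5 cases without any array, and lower in 1 for averaged probes. The cause of these shifts was not tested. None of the 14 called probes changed direction under any alternative run, and the calls that were lost by the study's criteria were those of IFI6, HERC6, ISG15, TRIM5 and PARP9. Of the 4 probes called at the adjusted p alone, SAMHD1 lost its call with quantile normalization, 75th percentile scaling, the filter and robust eBayes, the dimmer TRIM5 probe with quantile normalization and trended and robust eBayes, IFIH1 with robust eBayes, and all 4, IRF3 included, with the replicate block and without any array.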

Other observations

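ND replicate 1 stood above the other arrays on some probes, and the other arrays were not counted in the same way. It alone was at least 1.5 times every other array on 3 member probes, both measurable probes of OAS2 and the brighter probe of IFI44L, and on 1621 of the 28264 probes of the table. On the brighter OAS2 probe it gave 407 against 214 on ND replicate 2 and 141 and 167 on the HD arrays.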
